A study of Homo sapiens with 3 samples.

Results

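The genes described here are 35 genes of nucleolar ribosome biogenesis, taken as a fixed list from the 33538 genes of the deposited tables and set against MYC. They were measured in the human colorectal cancer line HCT116, whose genotype the labels give as p53plus, in 2 droplet libraries made with a 3' single-cell kit. Mix2 held irradiated cells carrying the antibody hashtag tag8, repopulated cells that regrew after irradiation (R, tag7) and non-irradiated cells (NC, tag6), loaded at 10000, 1000 and 1000 cells. Mix1 held irradiated cells only, with 10000 loaded. The irradiated cells of both libraries had received 8 Gy, were giant cells isolated on day 5 or 8 and were cultivated until day 10 or 11, so that cells before, during and after budding were pooled. The 4 groups of isolation and harvest days were not tagged apart. Within Mix2 the irradiated cells were divided by their tag8 count into strong IR (at least 3160 counts) and weak IR (500 to 3159 counts). Cells of R needed 104 tag7 counts, those of NC 374 tag6 counts, and in each case the own tag made up at least 80% of the 3 tags. After cells with under 200 detected genes or at least 10% mitochondrial UMIs had been left out, 2216 strong IR, 6322 weak IR, 633 R, 15630 Mix1 and 810 NC cells remained. There was 1 sample per population, so no test was made, and intervals cover counting error only. Strong IR, weak IR, R and NC share a library. Mix1 is a library of its own, and a difference of the library cannot be told apart from one of the cells there.

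Ribosomes are assembled in the nucleolus, where RNA polymerase I transcribes the ribosomal RNA precursor and small nucleolar ribonucleoproteins (snoRNPs) guide its methylation and pseudouridylation. Separate sets of factors then fold and cut the precursor into the small and the large subunit. MYC, a transcription factor that binds the E-box letters CACGTG, is known to drive many of these genes in growing cells, and the nucleolus is large in many cancer cells.

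Because the E-box is the site MYC is known to bind, the letters around it are shown for members that the results below turn on. Promoters (250 bases before to 50 after a transcript start, RefSeq, GRCh38.p14) were at hand for 29 of the 35 members. CACGTG, which reads the same on both strands, occurred in 16 of these 29 (55.2%), against 8.77% of 27305 genes in the table and 13.5% of the 6221 genes that were measured in strong IR or NC. By single promoters of the same length it was 16 of 37 for the members and 7.26% of all 35116. In 15 of the 29 (51.7%) an E-box began within 40 bases of a start, a distance chosen after the positions had been seen, against 2.71% of all genes in the table and 4.77% of the measured ones. CCGGAAG, a core of ETS factor sites searched on both strands, occurred in 12 of the 29 (41.4%), against 12.2% and 26.1%. These matches are descriptions of letters and not binding sites. Each sequence below is 30 bases long, with the E-box in capitals and the gene's own strand written 5′ to 3′. Position 0 is the start, and the position given is that of the first E-box base. DDX21 and GNL3 each had a further promoter without an E-box. For DDX21 that one (68955920 to 68956219) lies nearer the beginning of the gene than the promoter shown (68956397 to 68956696).
UTP20 (12, 101280083 to 101280112, plus strand, position -10): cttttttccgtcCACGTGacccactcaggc
RRP9 (3, 51941892 to 51941921, minus strand, position -5): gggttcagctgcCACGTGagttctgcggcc
NOP10 (15, 34343130 to 34343159, minus strand, position -11): gaaattgacgaaCACGTGacgcggtcgggc
WDR43 (2, 28894658 to 28894687, plus strand, position 3): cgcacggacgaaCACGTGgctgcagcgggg
FBL (19, 39846356 to 39846385, minus strand, position 6): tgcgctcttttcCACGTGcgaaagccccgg
GNL3 (3, 52686026 to 52686055, plus strand, position 6): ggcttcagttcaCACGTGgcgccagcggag
NOC3L (10, 94362903 to 94362932, minus strand, position 19): tagggacttcggCACGTGtgtcattccccg
DDX21 (10, 68956604 to 68956633, plus strand, position -31): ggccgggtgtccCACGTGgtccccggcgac
No CACGTG was found in the windows of NCL, NPM1, NOP56, DKC1 and NIP7, which says only that these letters are not in these windows.
The UTP20 start is at base 101280105 of chromosome 12, where the GENCODE gene UTP20 (101280105 to 101386618) also begins, and the 80 bases before it read as follows.
UTP20, before the start (101280025 to 101280104): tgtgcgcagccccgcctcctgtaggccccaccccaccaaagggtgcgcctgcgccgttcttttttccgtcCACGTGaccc

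Strong IR cells had a median of 11861.5 UMIs, against 7216 in weak IR, 6933 in R, 8995.5 in Mix1 and 7160.5 in NC cells. The total behind each population ran from 4731705 UMIs (R) to 150680612 (Mix1). Of the 11652 Mix2 cells kept, 1671 fell into no population, and 59 barcodes occurred in both libraries. The tag rule left out cells with mixed tags in Mix2, whereas doublets within 1 tag and in Mix1 were not removed. The 5 colorectal epithelial markers were at 10 CPM or more in every population, and none of 14 markers of other lineages (fibroblast, immune, endothelial, erythroid) was. CDKN1A, the cell cycle inhibitor induced by p53, was at 918 CPM in strong IR, 265 in weak IR, 255 in R, 630 in Mix1 and 180 in NC, and the proliferation marker MKI67 was at 126, 288, 317, 164.5 and 334 CPM in the same order. Weak IR thus lay nearer to NC than to strong IR by these 2 genes. Whether weak IR cells are budded progeny of irradiated cells, or non-irradiated or repopulated cells that picked up tag8, could not be settled from the files, so weak IR below stands for cells with that tag8 count only.

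The 35 members together made up 7053 CPM (UMIs per 1000000 gene UMIs of the population) in strong IR, 9723 in weak IR, 9058 in R, 8198 in Mix1 and 9795 in NC. Relative to NC, the ratio was 0.720 (95% interval 0.713 to 0.727) in strong IR, 0.837 (0.830 to 0.844) in Mix1, 0.925 (0.913 to 0.936) in R and 0.993 (0.984 to 1.002) in weak IR. MYC ran the other way in strong IR and Mix1, at 162 CPM in strong IR, 142 in weak IR, 110 in R, 167 in Mix1 and 116 in NC. Its ratio to NC was 1.40 (1.29 to 1.52) in strong IR, 1.22 (1.13 to 1.32) in weak IR, 0.948 (0.844 to 1.06) in R and 1.44 (1.34 to 1.56) in Mix1. Each stayed within 1.5-fold, the limit for a call used below. In weak IR MYC was above NC while the members were level with it. The populations with the most MYC, Mix1 and strong IR, thus had the lowest shares of the members. A CPM is a share of all UMIs, so fewer UMIs of these genes and more UMIs of others cannot be told apart. NPM1 and NCL alone held 33.2% (strong IR) to 41.6% (Mix1) of the members' UMIs. Without them the other 33 members were at 4710 CPM in strong IR, 5835 in weak IR, 5439 in R, 4785 in Mix1 and 5865 in NC, so strong IR and Mix1 were then at 0.803 and 0.816 of NC.

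**Figure D1:**
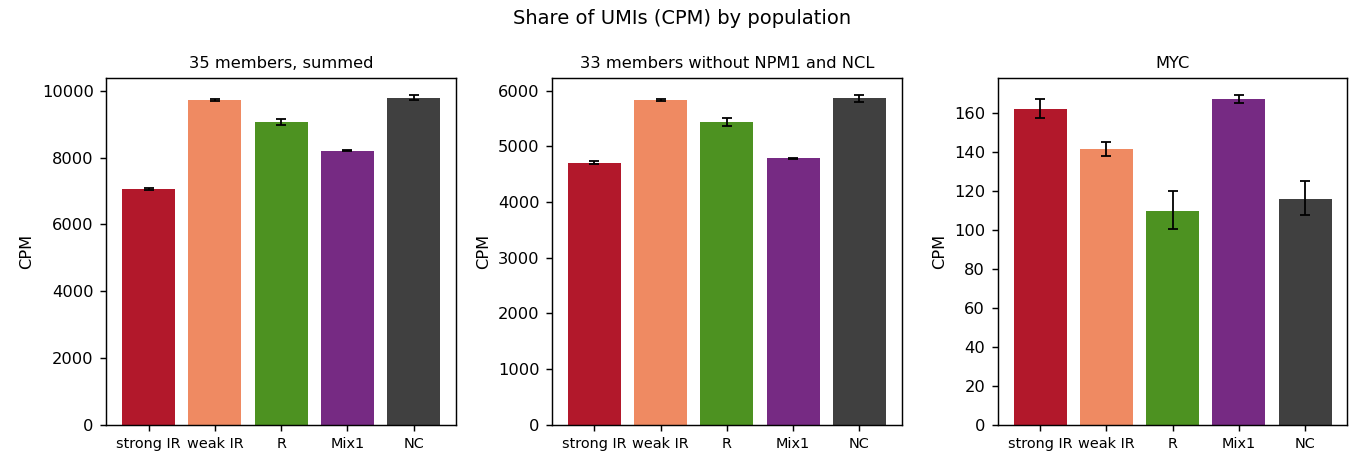
Summed CPM (linear axis from 0) of the 35 members, of the 33 without NPM1 and NCL, and of MYC in each population, with bars for the value and lines for the 95% Poisson interval. Strong IR is lowest for the members (7053 CPM) and has more MYC (162 CPM) than NC (116 CPM).

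Counted per cell, the order was another. A strong IR cell held 86.3 UMIs of the members on average, against 72.3 in weak IR, 67.7 in R, 79.03 in Mix1 and 73.8 in NC cells. The strong IR cell had 1.62 times the total UMIs of an NC cell but only 1.17 times the members, 1.30 times the 33 members without NPM1 and NCL, and 2.27 times the MYC UMIs (1.98 against 0.874). By UMIs per cell, 29 of the 35 members were above NC in strong IR, whereas NCL was at 0.842 of NC. The share over all measured genes was not computed. With 1.62 times the total UMIs, a gene can be above NC per cell while its CPM is below NC. UMIs per cell also depend on how much RNA was captured from each droplet, which was not tested. In single cells, the members' share of UMIs had a median of 0.654% in strong IR (middle 50% of cells 0.542 to 0.797%), 0.956% in weak IR, 0.890% in R, 0.793% in Mix1 (0.598 to 1.02%) and 0.965% in NC (0.845 to 1.12%). The middle ranges of strong IR and NC did not overlap, and that of Mix1 overlapped both.

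A member was called lower or higher when it had at least 10 CPM in either population, its ratio was at least 1.5-fold away from 1 and its interval excluded equality. All 35 members could be called in each comparison. Strong IR against NC had 9 members lower and 0 higher, where 15.4% of the 7722 measured genes were lower and 9.92% higher. Against weak IR, strong IR had 7 lower and 0 higher (all measured genes: 10.6% and 7.23%). Weak IR against NC had 0 lower and 0 higher (0.481% and 0.709%), and R against NC likewise 0 and 0 (1.77% and 1.42%). Mix1 against NC had 6 lower and 0 higher, where 10% of measured genes were lower and 6.97% higher. The median log2 ratio of the members was -0.37 in strong IR, -0.04 in weak IR, -0.12 in R and -0.27 in Mix1 against NC, beside -0.11, -0.03, -0.04 and -0.08 over all measured genes. In strong IR 30 members were below NC by value, 27 of them with an interval below 1, and 2 (NOP10 and BOP1) had an interval above 1. Of the 7722 measured genes 59.3% were below NC by value, 3113 had an interval below 1 and 1928 had one above 1. All comparisons with NC share the same 810 NC cells. The 9 lower calls in strong IR became 15 in cells of 5000 to 15000 UMIs, where 18.7% of all measured genes were lower, and 19 in cells under 5% mitochondrial UMIs (906 strong IR and 172 NC cells), where 27.2% were. The 6 in Mix1 became 0 and 5, beside 6.84% and 12.7% of all measured genes. With TMM scaling 7 members were lower in strong IR and 3 in Mix1, beside 11.9% and 7.94% of all measured genes. The lower share of all calls was then 48.7% in place of 60.8% in strong IR and 48.0% in place of 59.0% in Mix1.

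**Figure D2:**
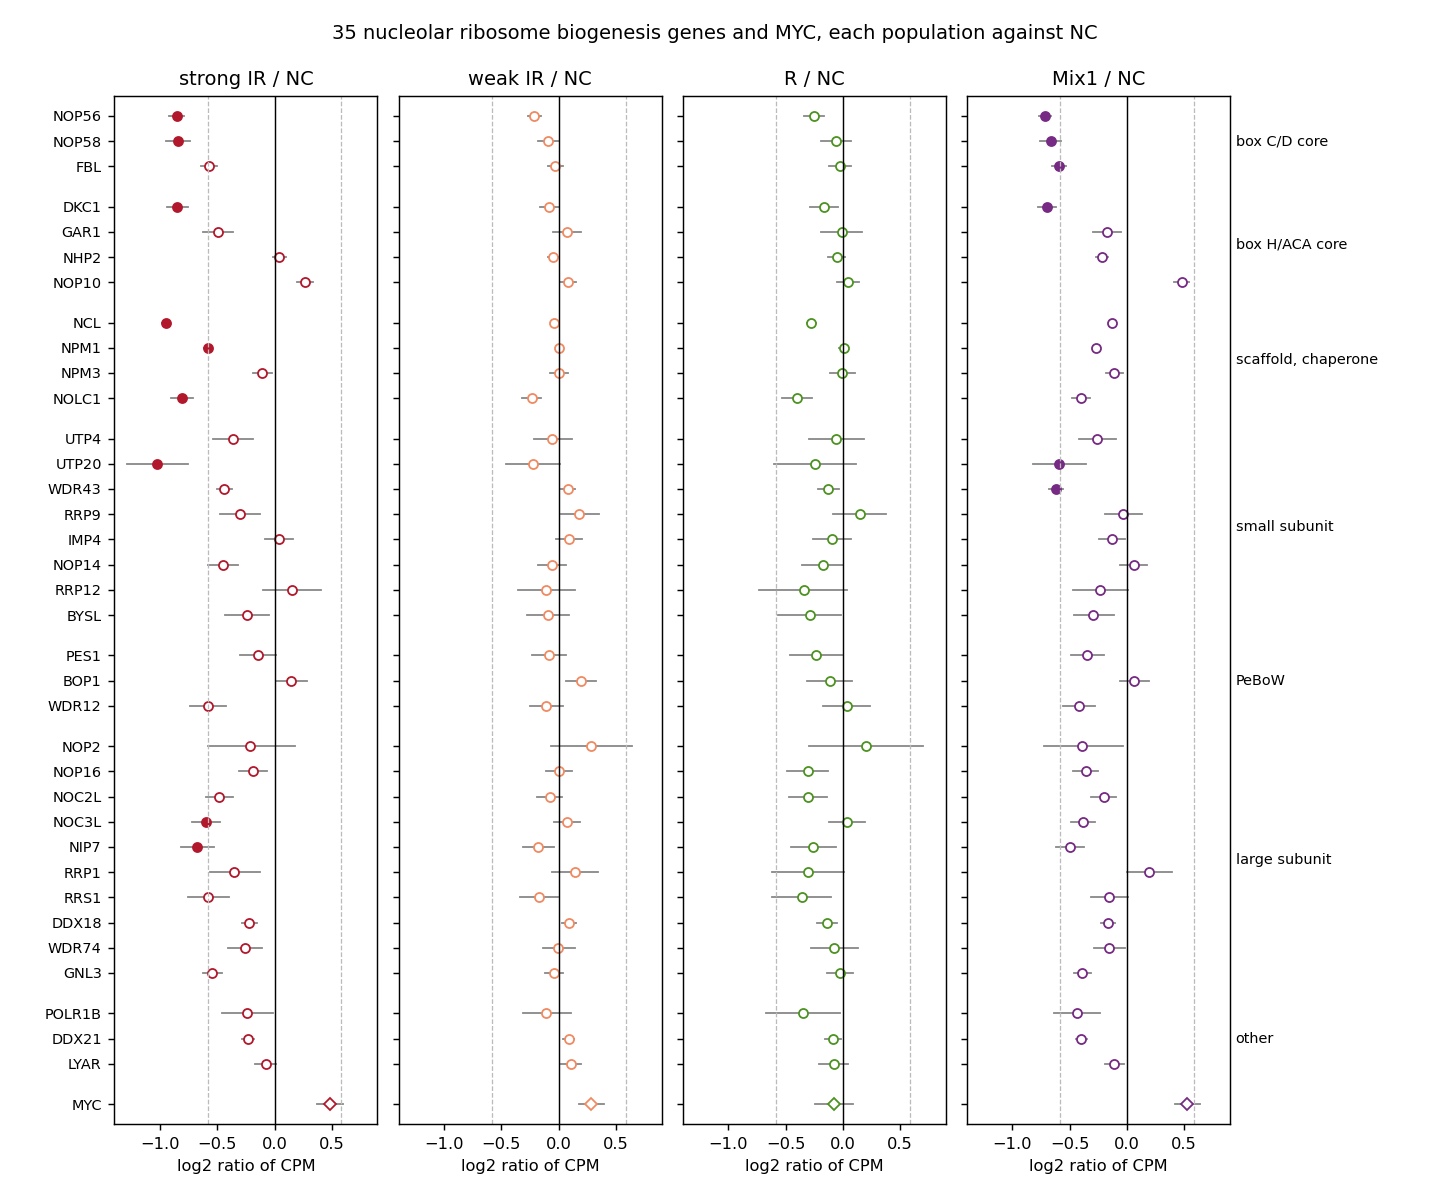
Log2 ratio of CPM to NC for each of the 35 members, grouped by role, and for MYC (diamond) in strong IR, weak IR, R and Mix1. Lines are 95% counting intervals, filled points pass the call and dashed lines mark 1.5-fold. In strong IR 9 members pass the call on the lower side, in weak IR and R 0.

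The core proteins of box C/D snoRNPs, which guide methylation of ribosomal RNA, had 2 of 3 members called lower in strong IR and 3 of 3 in Mix1. Of all measured genes 15.4% and 10% were. NOP56, a scaffold of the particle (chromosome 20, 2652593 to 2658393, GRCh38), was at 252 CPM in strong IR, 394 in weak IR, 383 in R, 278 in Mix1 and 456 in NC. Its ratio to NC was 0.552 (0.528 to 0.577) in strong IR and 0.609 (0.586 to 0.633) in Mix1. NOP58, its partner in the particle, was at 97.1 CPM in strong IR, 164.1 in weak IR, 168 in R, 110 in Mix1 and 175 in NC. For FBL, the methyltransferase fibrillarin, strong IR had 235 CPM, weak IR 342, R 343, Mix1 232 and NC 349. FBL passed the call in Mix1 (ratio 0.664) and stood just outside it in strong IR (0.673). In R, NOP58 and FBL were at 0.961 and 0.984 of NC, with intervals that include 1, whereas NOP56 was at 0.841 (0.792 to 0.893).

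Members of the box H/ACA snoRNP, which guides pseudouridylation, were mixed, with 1 of 4 called lower in strong IR and in Mix1 (all measured genes: 15.4% and 10%). DKC1, the pseudouridine synthase dyskerin (chromosome X, 154762742 to 154777689), was at 126 CPM in strong IR, 215 in weak IR, 202 in R, 140 in Mix1 and 227 in NC. That is a ratio to NC of 0.554 (0.520 to 0.590) in strong IR and 0.617 (0.585 to 0.652) in Mix1, both called lower. GAR1, another core protein, was at 0.709 (0.647 to 0.779) in strong IR. NHP2, the RNA-binding core protein, had 584 CPM in strong IR, 550 in weak IR, 547 in R, 488 in Mix1 and 567 in NC. Its strong IR ratio of 1.03 (0.993 to 1.07) ran from 0.980 to 1.18 over 17 alternative settings. NOP10, the smallest protein of the particle, had 381 CPM in strong IR, 334 in weak IR, 327 in R, 441 in Mix1 and 316 in NC. At 1.21 (1.148 to 1.27) in strong IR and 1.40 (1.33 to 1.46) in Mix1 it was the member with the highest ratio in each, short of a call, and over the same settings it stayed between 1.06 and 1.28 in strong IR. DKC1 and NOP10, whose proteins sit in 1 particle, thus differed in direction.

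The nucleolar scaffold and chaperone proteins include the 2 most abundant members. NCL, the RNA-binding protein nucleolin (chromosome 2, 231453531 to 231483641), was at 964 CPM in strong IR, 1812 in weak IR, 1538 in R, 1698 in Mix1 and 1860 in NC. Its ratio to NC was 0.518 (0.507 to 0.530) in strong IR and 0.913 (0.896 to 0.931) in Mix1. These sets are unlike, since strong IR is the part of the irradiated Mix2 cells with high tag8 counts and Mix1 was not divided. NPM1, the chaperone nucleophosmin, was at 1380 CPM in strong IR, 2076 in weak IR, 2080 in R, 1715 in Mix1 and 2070 in NC. With a strong IR ratio of 0.666 it was the last member inside the call, and WDR12 (0.667), RRS1 (0.670) and FBL were the nearest outside. NPM1 has near-identical pseudogene copies in the genome, so its count is uncertain to the extent that reads were split among them. NOLC1, a protein that binds snoRNPs, was at 120 CPM in strong IR, 178 in weak IR, 159 in R, 159 in Mix1 and 210 in NC, and had the lowest R ratio of the members (0.756, 0.690 to 0.828). NPM3, a relative of nucleophosmin, stayed at 0.929 (0.879 to 0.984) of NC in strong IR and at 0.998 in R.

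Factors of the small-subunit processome, the particle that folds and cuts the precursor around the small subunit, had 1 of 8 members lower in strong IR and 2 of 8 in Mix1. The strong IR count (12.5%) was near the 15.4% of all measured genes, and in Mix1 10% of all measured genes were lower. UTP20 was at 13.5 CPM in strong IR, 23.5 in weak IR, 23.2 in R, 18.3 in Mix1 and 27.5 in NC. This was the lowest strong IR ratio of all members, 0.492 (0.408 to 0.594), from a gene near the CPM limit. WDR43, which acts early in transcription-coupled assembly, was at 297 CPM in strong IR, 426 in weak IR, 370 in R, 263 in Mix1 and 403 in NC. It was called lower in Mix1 (0.652, 0.626 to 0.679) and not in strong IR (0.737, 0.704 to 0.771), while weak IR was at 1.06 (1.01 to 1.10). The U3 snoRNP proteins RRP9 and IMP4 had strong IR ratios of 0.810 (0.717 to 0.917) and 1.03 (0.946 to 1.12). UTP4, NOP14 and BYSL, further assembly factors, lay at 0.776, 0.730 and 0.846 in strong IR. RRP12, a factor of subunit maturation and export, was at 27.6 CPM in strong IR and 24.9 in NC, a ratio of 1.11 with an interval of 0.930 to 1.33.

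For the large subunit, 2 of 10 assembly factors (20%) were lower in strong IR, near the 15.4% of all measured genes. NIP7 was at 55.7 CPM in strong IR, 78.7 in weak IR, 74.4 in R, 63.0 in Mix1 and 89.0 in NC, with a strong IR ratio of 0.627 (0.568 to 0.692). NOC3L was at 82.2 CPM in strong IR, 131 in weak IR, 128 in R, 95.6 in Mix1 and 125 in NC, with a strong IR ratio of 0.660 (0.608 to 0.718). The other 8 factors lay between RRS1 (0.670) and NOP16 (0.879) in strong IR, with GNL3, the GTPase nucleostemin, at 0.687, NOC2L, whose yeast relative acts in export of the large subunit, at 0.716, WDR74 at 0.834 and the helicase DDX18 at 0.859. All 10 were below NC there, and 9 had an interval below 1, the exception being NOP2 (0.864, 0.668 to 1.13), an RNA methyltransferase with few UMIs at 10.6 CPM in strong IR and 12.3 in NC. In R the same 10 ran from 0.781 (RRS1) to 1.152 (NOP2). RRP1 was at 1.146 (1.003 to 1.32) in Mix1 but 0.784 (0.675 to 0.914) in strong IR.

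The PeBoW complex of PES1, BOP1 and WDR12, which acts in large-subunit maturation, had 0 of 3 members called in any comparison. Of all measured genes 15.4% were lower and 9.92% higher in strong IR against NC. WDR12 was at 47.2 CPM in strong IR, 65.7 in weak IR, 72.5 in R, 53.0 in Mix1 and 70.8 in NC. BOP1 was at 94.4 CPM in strong IR, 97.4 in weak IR, 78.6 in R, 89.0 in Mix1 and 85.2 in NC, and PES1 at 60.4, 62.9, 56.9, 52.4 and 66.7 CPM in the same order. The strong IR ratios were 0.667 (0.597 to 0.745) for WDR12, 0.906 (0.812 to 1.01) for PES1 and 1.11 (1.01 to 1.22) for BOP1. POLR1B, a core subunit of RNA polymerase I, was at 0.847 (0.728 to 0.989) in strong IR. DDX21, an RNA helicase of the nucleolus, was at 563 CPM in strong IR, 703 in weak IR, 624 in R, 502 in Mix1 and 662 in NC. LYAR, a nucleolar zinc-finger protein, was at 0.948 (0.890 to 1.01) in strong IR.

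In the whole set, 4 members were called lower in both strong IR and Mix1 (NOP56, NOP58, DKC1 and UTP20), which share the NC cells. Weak IR ratios to NC ran only from 0.849 (NOLC1) to 1.21 (NOP2) and R ratios from 0.756 to 1.152. In R, 14 members had an interval below 1 and 0 above it, beside 947 and 594 of the 7533 measured genes. By value, 18 members were lower in strong IR than in weak IR and lower in weak IR than in NC. For that count and for the 4 called in both, the share over all measured genes was not computed. Split by the E-box, the 16 with CACGTG had a median log2 ratio of -0.34 in strong IR with 2 called lower, and the 13 without it had -0.48 with 5 called lower. Beside these counts, 15.4% of all measured genes were lower. The 6 members without a promoter at hand, among them NOP58 and NOLC1 (both called lower), are in neither group. In Mix1 the medians were -0.32 with an E-box and -0.27 without.

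Along the tag8 count of the irradiated Mix2 cells, the members went down at each step, whereas MYC stayed between 137 and 162 CPM. The members together were at 10187 CPM in 1835 cells of 500 to 999 counts, 9771 in 3170 cells of 1000 to 1999, 9269 in 1317 cells of 2000 to 3159, 7980 in 870 cells of 3160 to 5999 and 6466 in 1346 cells of 6000 or more. NCL was at 2042, 1825, 1607, 1203 and 812 CPM over the same 5 steps. MYC was at 150, 137, 143, 162 and 162 CPM. The intervals of neighbouring steps did not overlap for the members or for NCL, whereas for MYC the 2 upper steps were level. The MYC interval of the lowest step (142 to 157) overlapped those of the 2 upper steps (154 to 170 and 156 to 169). Both the median UMIs per cell (5720, 7458.5, 9184, 11744 and 12017) and the summed CPM of 40 cell cycle genes (4583, 4996, 4837, 3413 and 1823) differed between the steps. The cycle genes went down with the members over the upper steps but not between the lowest 2. Their part in the members' values was not tested.

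**Figure D3:**
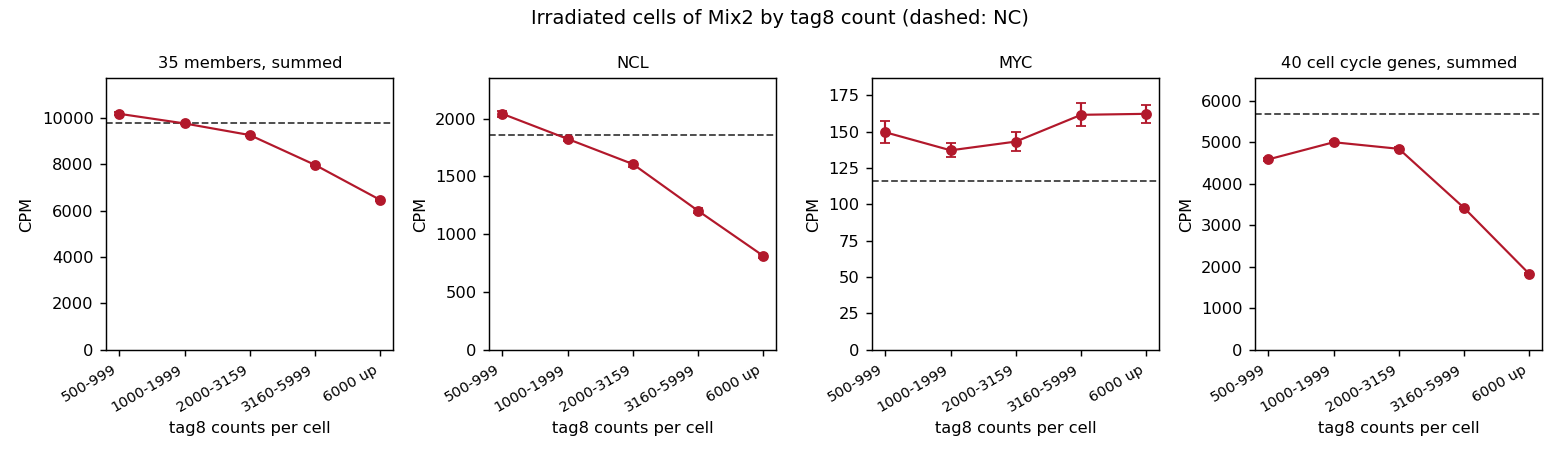
CPM of the summed members, NCL, MYC and 40 summed cell cycle genes in the irradiated Mix2 cells by tag8 count per cell, with 95% Poisson intervals and the NC value as a dashed line. The members go down to 6466 CPM in the top step, where MYC is at 162 CPM.

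Since the cell cycle genes were also low where the members were lowest, the populations were set side by side within 3 classes of cells by the share of UMIs from the 40 cycle genes, with the NC tertiles of 0.446% and 0.617% as limits. These classes are ranges of a score and not cell types. The low class held 83.1% of strong IR, 50.4% of weak IR, 39.3% of R and 79.1% of Mix1 cells, against 33.3% of NC cells. In it the members were at 6566 CPM in strong IR and 9548 in NC, a ratio of 0.688 (0.677 to 0.699), but the cycle genes were not matched there (1546 CPM in strong IR and 3343 in NC). In the middle class, where they were (5237 and 5285 CPM), the members' ratio was 0.894 (0.878 to 0.911), and in the high class (7596 and 7884 CPM) it was 0.9497 (0.932 to 0.968). MYC was above NC in all 3 classes of strong IR, at 1.38 (1.203 to 1.58), 1.22 (1.03 to 1.45) and 1.30 (1.11 to 1.54) from low to high. Mix1 had members' ratios of 0.778 (0.766 to 0.789), 1.06 (1.04 to 1.07) and 1.05 (1.03 to 1.06) from low to high. R had 0.905, 0.953 and 0.925. Without NPM1 and NCL, the Mix1 ratios were 0.786, 0.956 (0.938 to 0.974) and 0.953 (0.936 to 0.970) in the same order. Mix1 was thus above NC in the middle and high classes only with these genes included. The strong IR ratios without them were 0.786, 0.933 and 0.984 (0.960 to 1.008). With all members, the strong IR ratios in cells of 5000 to 15000 UMIs were 0.659, 0.878 and 0.925, in the same order of classes.

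**Figure D4:**
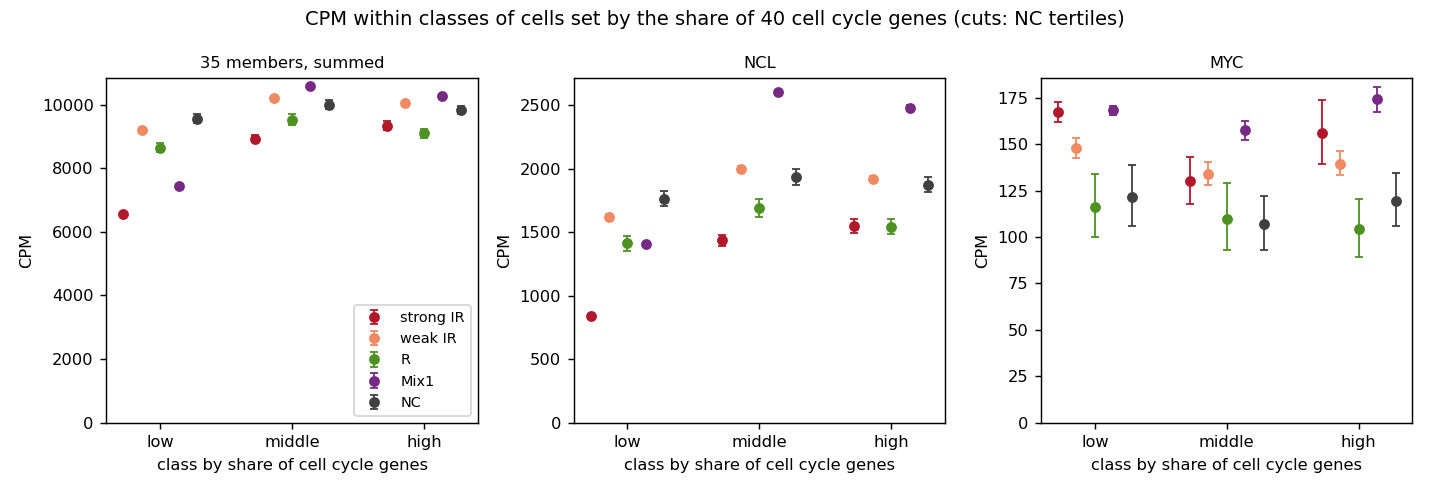
CPM of the summed members, NCL and MYC within low, middle and high classes of the share of 40 cell cycle genes, for each population, with 95% Poisson intervals. The members of strong IR lie at 6566 CPM in the low class, against 9548 CPM in NC, and at 9335 CPM in the high class, against 9829 CPM in NC.

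Gene by gene in the middle and high classes together, 375 strong IR and 540 NC cells, 0 members were called lower or higher in strong IR, and the median log2 ratio was -0.07. Calls were few over all measured genes too, with 1.87% lower and 2.41% higher in these cells. This selection was added after the values above had been seen. An interval below 1 remained for 10 members, among them UTP20 (0.695, 0.530 to 0.909), NIP7 (0.758, 0.656 to 0.876), NCL (0.779, 0.755 to 0.803), NOLC1 (0.807, 0.734 to 0.887), DKC1 (0.824, 0.754 to 0.901) and NOP56 (0.855, 0.805 to 0.909). The share of all measured genes with such an interval was not computed for these cells. FBL was at 0.999 (0.932 to 1.07) and NPM1 at 0.944 (0.917 to 0.972) in those cells. LYAR was the only member with an interval above 1 (1.13, 1.04 to 1.24), and MYC was at 1.23 (1.10 to 1.39). In the 3266 Mix1 cells of these classes NCL was at 1.34 (1.31 to 1.37) of NC. There 1 member was called higher (RRP1, at 1.51), while 0 were called lower (all measured genes: 4.46% and 3.58%). The cycle genes of these cells summed to 6172 CPM in strong IR, 6109 in Mix1 and 6690 in NC.

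Mix1 cells also differed by depth. The members were at 7411 CPM in the 31.8% of Mix1 cells under 5000 UMIs, 9102 in those of 5000 to 10000, 8844 in those of 10000 to 15000 and 7439 in the 19.3% with more, and NCL was at 1213, 2073, 1960 and 1421 CPM along these steps. In strong IR the members were at 5667, 6466, 6870 and 7551 CPM over the same steps, and in NC at 10053.5, 9792, 9827 and 9092. Strong IR was thus below NC at every depth, whereas Mix1 between 5000 and 15000 UMIs came closest to it. The cycle genes moved with depth in Mix1 as well (1819, 3164, 3480 and 2505 CPM).

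To see whether cells with more MYC transcript also had more of the members, each cell was thinned to 5000 UMIs, which left out 150 strong IR, 1099 weak IR, 96 R, 4963 Mix1 and 111 NC cells. Strong IR cells with 0, 1 to 2 and 3 or more MYC UMIs held 34.2, 34.6 and 33.6 UMIs of the members on average. Weak IR cells held 48.8, 49.1 and 51.7, R cells 44.6, 46.2 and 47.1, Mix1 cells 42.4, 42.8 and 45.0, and NC cells 48.4, 49.1 and 52.0. In strong IR the counting intervals of the classes overlapped (33.9 to 34.6, 34.2 to 34.97 and 32.6 to 34.7). In weak IR the interval at 3 or more MYC UMIs (50.8 to 52.5) lay above that at 0 (48.5 to 49.1), as it did in Mix1 (44.5 to 45.5 above 42.2 to 42.6) and NC (49.2 to 54.9 above 47.7 to 49.05). In R the intervals at 3 or more (43.8 to 50.5) and at 0 (43.9 to 45.4) overlapped. These intervals leave out the spread between cells, whose SD within a class was 9.70 to 16.3. Whether the classes differ beyond that spread was not tested. A cell with 0 MYC UMIs may still hold MYC RNA that was not captured, and the class of 3 or more held 25 cells in NC and 16 in R.

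**Figure D5:**
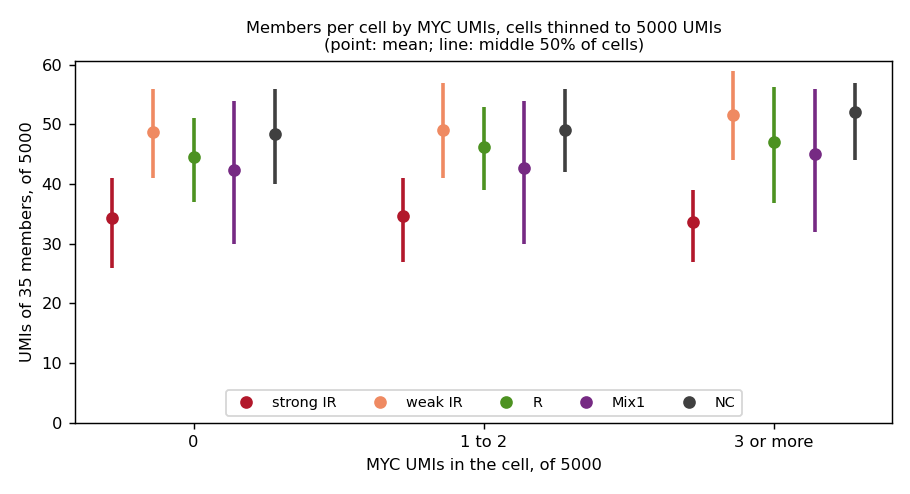
UMIs of the 35 members in cells thinned to 5000 UMIs, by the cell's MYC UMIs (0, 1 to 2, 3 or more) and population. Points are means and lines span the middle 50% of cells, with strong IR lowest in each class (34.2, 34.6 and 33.6).

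Other genes of the same pathway, from lists that hold no member, were read beside the members. In strong IR 15.4% of all measured genes were lower and 9.92% higher. Of 37 measured further small-subunit factors 13 (35.1%) were lower there and 0 higher, with a median log2 ratio of -0.45. Among them BMS1, a GTPase of the processome, was at 73.1 CPM in strong IR and 135 in NC, and NOL11 at 60.7 and 112. Of 45 large-subunit factors 8 (17.8%, near the share of all genes) were lower (median -0.38), including BRIX1 at 139 CPM in strong IR and 241 in NC. RNA polymerase I genes had 4 of 13 (30.8%) lower (median -0.35), namely TAF1A, TAF1B, UBTF and CD3EAP, and UBTF, which binds ribosomal DNA, was at 59.0 CPM in strong IR and 101 in NC. Each of these 3 lists had 0 lower and 0 higher in weak IR and R, where few genes were called at all. The shares of all measured genes were 0.481% lower and 0.709% higher in weak IR, and 1.77% and 1.42% in R. In Mix1, 10% of all measured genes were lower and 6.97% higher. There 2 of 37 small-subunit factors (5.41%), 8 of 45 large-subunit factors (17.8%) and 2 of 13 polymerase I genes (15.4%) were lower, and 0 of each were higher.

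Ribosomal protein genes lay on the other side of NC in strong IR by their median log2 ratio of 0.17, beside -0.11 over all measured genes. Few were called, with 0 of 82 lower and 1 higher, where 15.4% and 9.92% of all measured genes were. In Mix1 2 were lower and 7 higher (all measured genes: 10% and 6.97%). Of 24 other known MYC targets 4 (16.7%, near the 15.4% of all measured genes) were lower in strong IR (median -0.43): HSPD1, PAICS, EIF5A and ODC1, with the chaperone HSPD1 at 1302 CPM in strong IR and 2183 in NC. MYC network genes differed among themselves. MXD4 and MXI1, whose proteins compete with MYC for its partner MAX, were at 64.2 and 51.5 CPM in strong IR and at 15.7 and 25.6 in NC, ratios of 4.08 (3.32 to 5.07) and 2.02 (1.71 to 2.39). MXD3, of the same family, was at 0.472 (0.372 to 0.602). In weak IR, MXD4 and MXI1 were at 1.34 (1.09 to 1.67) and 1.33 (1.13 to 1.58). The 40 cell cycle genes were all lower in strong IR, with a median log2 ratio of -1.30, which is further from NC than any of the 35 members.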

How the data were processed

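The authors deposited UMI counts per gene and barcode as whole numbers without normalization, made per the file headers with Cell Ranger 3.1.0 (Mix1) and 3.0.1 (Mix2) on GRCh38. The submitters' processing notes also list Seurat 2.3 and mm10. An unfiltered Mix2 count matrix served only for 20682 droplets of 10 to 100 UMIs without cells. Counts were summed per population and divided by its gene UMIs (CPM) with Python 3.11.15, numpy 2.4.6, scipy 1.17.1 and pandas 2.3.3. Ratios have conditional binomial and levels Poisson intervals (95%), and the script was tested on simulated counts. With 1 sample per population no model across genes was fitted. The text names all 35 members, MYC, and up to 4 genes of each further list (RNA polymerase I, small-subunit, large-subunit, MYC network, other MYC targets, cell cycle, ribosomal proteins) with the largest absolute log2 ratio in strong IR against NC. The cell cycle and ribosomal protein lists are given by counts and medians. The members and lists were chosen with earlier results of these data known. CDKN1A and MKI67 were taken as checks of the labels. EMG1 occurs on 2 rows and was left out. Alternatives changed cell filters, tag rules, scaling (TMM of edgeR 4.0.16), depth, CPM limit, call ratio and background. Gene positions are from GENCODE 44, matched by gene ID. NOP58, NOLC1, RRP12, RRS1, BOP1 and DDX18 had no promoter matched.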

Additional observations from a re-analysis of the deposited data

Results flagged for a closer look

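Some members lay on opposite sides of NC in 2 populations. The differences themselves were not tested, since each population was 1 sample. RRP1 was at 0.784 of NC in strong IR and at 1.146 in Mix1. The others differed between the tag8 ranges of Mix2 (the makeup of weak IR was not settled): RRP9 was at 0.810 in strong IR and 1.13 in weak IR, WDR43 at 0.737 and 1.06, DDX21 at 0.850 and 1.06, and DDX18 at 0.859 and 1.06, in the same order of populations. Over 17 alternative settings the strong IR ratio rose as high as 1.11 for RRP1, 1.05 for RRP9 and 1.01 for DDX18. It stayed below 1 for WDR43 (at most 0.992) and DDX21 (at most 0.924). In the unfiltered Mix2 matrix, which enters no comparison, the 35 members made up 4301 CPM of the UMIs in droplets without cells, against 7053 in strong IR and 9795 in NC cells, and MYC made up 72.5 CPM. RNA of these genes was therefore also present outside cells, and its part in the values of each population was not tested beyond the subtraction given among the alternatives.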

How the results depend on the processing

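No paired analysis was possible because each population was 1 sample. No called value changed sign under the settings run (19 for counts and medians, 17 for single members): of 2935 values of single members 2604 moved by less than their interval and 331 by more. Members that did not pass the call, such as RRP1, RRP9 and DDX18 in strong IR, could change sign. Counts of members called lower depended on the settings. In cells under 5% mitochondrial UMIs, 27.2% of all measured genes were lower in strong IR and 1.796% in R against NC. Against weak IR 23.5% were lower in strong IR, and 4.22% were higher in weak IR against NC. Among the members in these cells, 19 were lower in strong IR and 1 in R against NC. In strong IR against weak IR 20 members were lower, and 1 was higher in weak IR against NC. The medians (log2) there were -0.71 in strong IR and -0.25 in R against NC and -0.71 in strong IR against weak IR, and MYC was at 0.44 in weak IR, -0.65 in R (31 cells) and 0.056 in strong IR against weak IR. In cells of 5000 to 15000 UMIs, 15 were lower in strong IR and 0 in Mix1 against NC, and 13 in strong IR against weak IR. The shares of all measured genes were 18.7%, 6.84% and 14.3%. TMM, CPM without mitochondrial and ribosomal protein genes, and leaving out the 5% of cells with most UMIs each gave 3 lower in Mix1. Beside these stood 7.94%, 7.47% and 8.57% of all measured genes. With equal weight per cell MYC was at 0.12 in strong IR against weak IR. At the laxer call ratio of 5 to 4, 19 were lower in strong IR, 3 in R and 16 in Mix1 (1 higher) against NC, and 20 in strong IR against weak IR (of all measured genes 31.6%, 6.36%, 25.1% and 27.4% were lower, in this order). At a ratio of 2 these were 1 in strong IR, 0 in Mix1 and 0 in strong IR against weak IR, beside 4.07%, 1.93% and 1.99% of all measured genes. Among cells above the lower NC tertile of cycle genes, a setting chosen after seeing the data, 0 were lower in strong IR, in Mix1 (1 higher) and in strong IR against weak IR (all measured genes: 1.87%, 3.58% and 0.450%). The medians were then -0.071, -0.091 and -0.064, and MYC was at 0.30 in strong IR against NC and 0.037 against weak IR. The causes were not tested. Subtracting an assumed 10% of background gave 12 lower in strong IR against NC, where 18.3% of all measured genes were lower, and could not be done for Mix1. TMM and the CPM without mitochondrial and ribosomal protein genes also shifted the lower share of all calls, with TMM in weak IR to 24.8% in place of 40.4%, and with that CPM to 47.2% in place of 60.8% in strong IR, 43.0% in place of 59.0% in Mix1, 40.6% in place of 55.4% in R and 47.0% in place of 59.4% in strong IR against weak IR. Members with few UMIs, such as NOP2 and UTP20, are limited by depth.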
